A study of Homo sapiens with 5 samples.

Results

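SULF1 and SULF2 encode the heparan sulfate endosulfatases, a pair of secreted enzymes that work on the cell surface and in the matrix. The genes were chosen by their symbols after their levels in growth medium (GM) and hypertrophic medium (HM) were known, and they are 2 of the 2694 genes listed in each library. Their difference between the media belongs to the values they were selected on, so it is given as a description with no test. The libraries hold total RNA of TC28a2, an established human chondrocyte line labelled as derived from costal cartilage, sequenced on day 5 from 2 libraries in GM and 3 in HM. The study compared the media to follow a chondrocyte line under conditions that drive hypertrophy. GM was high-glucose DMEM with 10% fetal bovine serum. HM used the same base with serum lowered to 1%, and it contained BMP-2 at 100 ng/ml, GDF-5 at 10 ng/ml, T3 (a thyroid hormone) at 1 µM, dexamethasone at 10 nM, ascorbic acid at 50 µg/ml, β-glycerophosphate at 10 mM and an insulin, transferrin and selenium supplement at 1%. Both media held an antibiotic and antimycotic solution at 1%, and HM was renewed every 2 days. The serum and the added agents changed together between the media, and their parts cannot be told apart.

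By the study's methods the deposited values are read counts after a log2 step and RLE normalization, which scales libraries by the median ratio of genes to a common reference. The submitters' processing notes name other tools, and the conflict was not settled. Whether the log2 step also shrinks low values is not stated, so differences are given in log2 units and not turned into fold changes. The depth of each library is unknown from such values. No listed gene had an absolute difference between the media under 0.21, so the list holds no background of unchanged genes. By their means, 1707 of the listed genes rose in HM and 987 fell. Both counts equal those printed by the study for its raised and lowered transcripts. The list is therefore taken as the set of genes that the study itself called different on these same libraries. An adjusted p here is therefore conditional on that choice, and it sets a difference beside the spread between replicates without being independent evidence that a gene differs. The median difference was 0.70 among the genes higher in HM and -0.69 among the lower ones, so most differences were below 1 on this scale. A difference of at least 1 is used only as a mark of size on it and is not the cut of the study. The study prints its cut as a log2 fold change beyond 2 with an FDR under 0.05, and its methods name a fold change of at least 2 for clustering. As deposited, 28 genes were higher and 29 lower by at least 2 with an adjusted p under 0.05 (limma). Most listed differences thus fall short of either cut on the deposited scale, and the reason was not tested. All libraries come from a single cell line. The study's methods call its replicates biological and name the GM group of the RNA sequencing as an exception in number, but they do not say how cultures of this line were kept apart, so the p-values measure only the spread between these libraries. HM replicate 1 stood somewhat apart. Its Euclidean distance over the listed genes was 16.7 to HM replicate 2 and 19.6 to HM replicate 3, which were 14.6 from each other, while the GM libraries were 8.90 apart. Results are therefore also given without HM replicate 1.

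Heparan sulfate chains carry sulfate groups in patterns that growth factors, morphogens and chemokines recognize, and the chains are held at the cell surface or in the matrix by core proteins such as syndecans, glypicans and perlecan. SULF1 and SULF2 remove sulfate from carbon 6 of glucosamine within intact chains, which lowers the binding of some ligands, such as fibroblast growth factors, and releases others, such as Wnt proteins and the BMP antagonist noggin. In cartilage both enzymes are known for their part in the balance of BMP and FGF signaling in chondrocytes.

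SULF2 lies on the minus strand of chromosome 20 of GRCh37, from 46284941 to 46415360, and its canonical transcript has 21 exons and encodes 870 residues. SULF1 lies on the plus strand of chromosome 8, from 70378859 to 70573150, with 23 exons and 871 residues. Translated from their canonical transcripts and aligned, the proteins were identical at 68.7% of 844 aligned residues. Identity was uneven along the chain. It reached 86.0% over residues 101 to 200 of SULF2, in the catalytic part, and was lowest over residues 501 to 600, at 36.8%. Lysine and arginine made up 22.0% of residues 401 to 500 and 22.0% of residues 601 to 700 of SULF2, against 14.6% of the whole protein, in the basic region known as the hydrophilic domain, which binds the substrate.

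**Figure D1:**
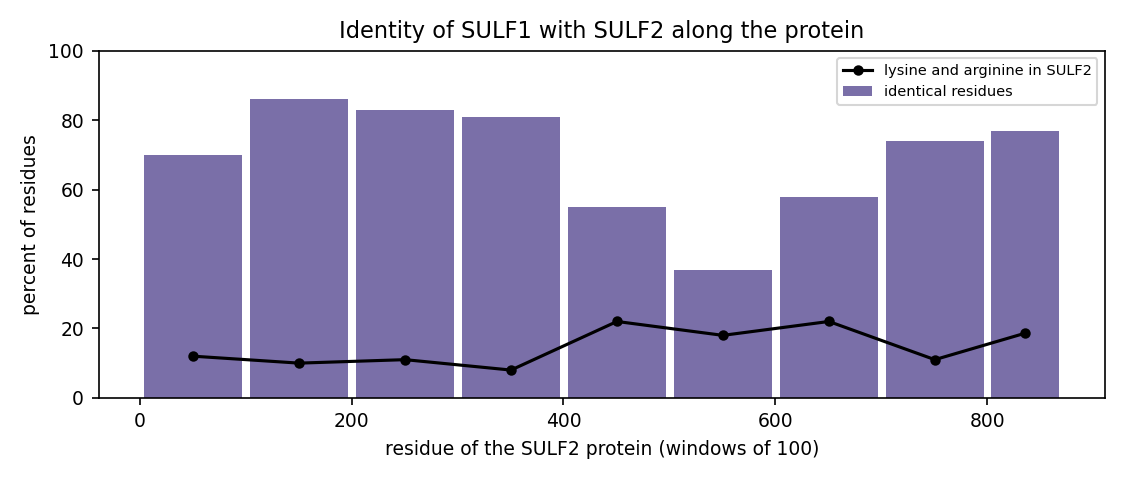
Percent of aligned residues identical between SULF1 and SULF2 in windows of 100 residues along the SULF2 protein (bars), with the percent of lysine and arginine in SULF2 (points). Identity was 81.0% or more in the windows from residue 101 to 400 and 36.8% in the window from 501 to 600.

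Sulfatases share a signature around a cysteine that a dedicated enzyme converts to formylglycine, the residue that attacks the sulfate ester. This stretch is shown because it joins SULF2 with ARSB and STS, the listed members of the sulfatase list. Each line gives coding sequence of GRCh37, 5′ to 3′ along the gene, with the cysteine codon in capitals. The codon is residue 88 of SULF2 in exon 3 of 21 (chr20:46365568-46365630, minus strand), residue 91 of ARSB in exon 1 of 8 (chr5:78280769-78280831, minus strand) and residue 70 of STS in exon 4 of 11 (chrX:7175323-7175385, plus strand).
SULF2: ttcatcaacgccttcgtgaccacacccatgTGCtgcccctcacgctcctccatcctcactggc
ARSB: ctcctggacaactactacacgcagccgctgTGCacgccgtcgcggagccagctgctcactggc
STS: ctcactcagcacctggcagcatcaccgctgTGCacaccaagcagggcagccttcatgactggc
Over the 21 residues centred on the cysteine, SULF2 was identical with SULF1 at 20, with ARSB at 10 and with STS at 7. The coding bases of SULF1 and SULF2 were identical at 66.4% over aligned codons, and the longest run of bases that their canonical transcripts share was 21, so the members are similar but not near-identical copies.

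SULF2 was higher in HM by 2.50 on the log2 scale. It was 14.13 in both GM libraries and 16.46, 16.65 and 16.76 in HM replicates 1, 2 and 3. Every HM library lay above both GM libraries, and HM replicate 1 was the lowest of its group. The means were 14.13 ± 0.0013 (SD, n = 2) in GM and 16.62 ± 0.15 (SD, n = 3) in HM. Only 0.8% of listed genes had a smaller GM SD, and the median GM SD over the list was 0.067. An SD from 2 libraries is itself uncertain, so the small value is no measure of precision. The lowest HM value exceeded the highest GM value by 2.34. Without HM replicate 1 the difference was 2.58. As these are bulk libraries, a larger share of expressing cells and more RNA per cell cannot be told apart.

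SULF1 was also higher in HM, by 1.23. It was 12.84 and 12.77 in GM replicates 1 and 2, and 14.28, 13.93 and 13.89 in HM replicates 1, 2 and 3. The media did not overlap for SULF1 either, and here HM replicate 1 was the highest of its group. The means were 12.81 ± 0.051 (SD, n = 2) in GM and 14.03 ± 0.21 (SD, n = 3) in HM. The lowest HM value exceeded the highest GM value by 1.05, and without HM replicate 1 the difference was 1.10.

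**Figure D2:**
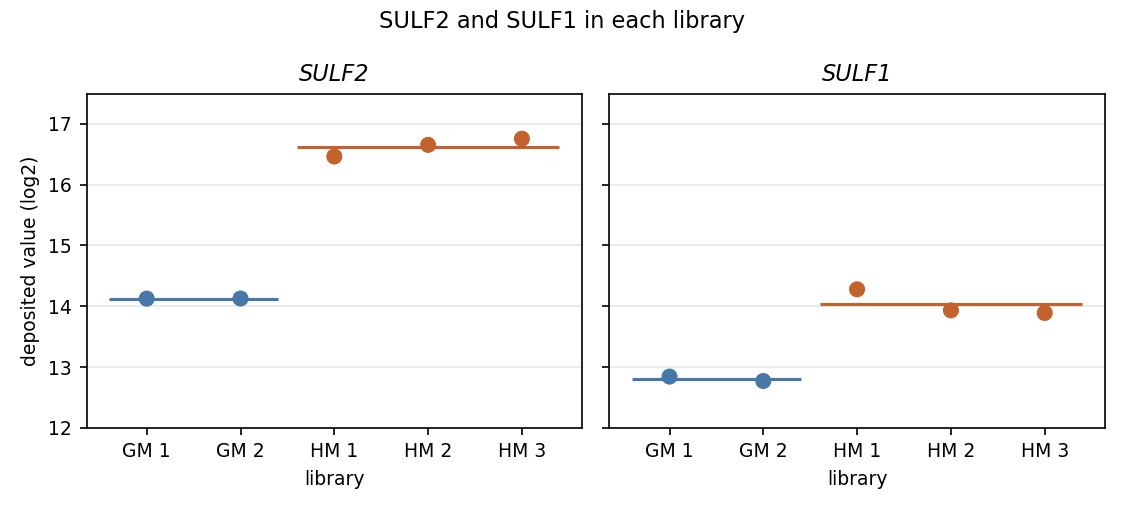
Deposited log2 values of SULF2 and SULF1 in each library, with points for libraries and horizontal lines for the mean of each medium (GM, growth medium; HM, hypertrophic medium). SULF2 lies between 16.46 and 16.76 in HM against 14.13 in GM, and HM replicate 1 is the lowest HM library for SULF2 and the highest for SULF1.

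The members thus differed in opposite ways within HM. HM replicate 1 minus the mean of HM replicates 2 and 3 was -0.24 for SULF2 and 0.37 for SULF1, while the median of this quantity over all listed genes was 0.070. Within each library, the SULF2 value minus the SULF1 value was 1.28 and 1.36 in GM replicates 1 and 2, and 2.18, 2.72 and 2.87 in HM replicates 1, 2 and 3. The distance between the members was therefore wider in each HM library than in either GM library. Its mean was 1.32 ± 0.053 (SD, n = 2) in GM and 2.59 ± 0.36 (SD, n = 3) in HM, a change of 1.27 on the log2 scale, or 1.47 without HM replicate 1. This quantity does not depend on a constant shift of a library.

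Levels of the members can be compared only per length. With the log2 of the merged exon length in kilobases subtracted (6.98 kb for SULF2 and 9.37 kb for SULF1), SULF2 was 11.32 in GM and 13.82 in HM, and SULF1 was 9.58 in GM and 10.81 in HM. SULF2 was thus above SULF1 in both media, by 1.75 in GM and 3.02 in HM, and each gap exceeded the SD of either gene in that medium. Among the 2441 listed genes with a length, SULF2 ranked 96 in GM and 10 in HM by this level, and SULF1 ranked 323 and 128. The order of the members stayed the same with the longest annotated transcript as the length, where SULF2 was above SULF1 by 1.54 in GM and 2.81 in HM. The subtraction treats the deposited values as log2 read counts, scaled between libraries, and any shrinkage in them was not tested. If the values were already per length, the length would be taken off again, and with no length subtracted SULF2 was above SULF1 by 1.32 in GM and 2.59 in HM.

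Among all 2694 listed genes ordered by their difference between the media, SULF2 ranked 6 and SULF1 ranked 156. COL14A1, which encodes a fibril-associated collagen, stood directly above SULF2 with 2.52, and C7, which encodes a complement component, directly below with 2.50. SEPTIN4 and CEACAM1, with 1.23 and 1.22, enclosed SULF1. These neighbours differed from the members by less than the SD of the members in HM. Both members were without overlap between the media, as were 2667 of the listed genes (99.0%), so this does not set the members apart. Over the list, a limma fit called 318 genes higher in HM with an adjusted p under 0.05 and a log2 difference of at least 1 (11.8% of those tested) and 190 lower by as much (7.05%). By the adjusted p alone (limma), 1683 genes were higher (62.5%) and 984 lower (36.5%). The median of the differences over the list was 0.56.

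The scale of the libraries matters for these counts. Median centring takes the median of the listed genes as unchanged, and quantile normalization takes the distribution of values as equal between libraries. The list has no unchanged background and more genes that rose than fell, so neither assumption can be relied on. Either scaling may alter a real difference, so a call lost under it is no evidence that the gene is unchanged. Centring each library on the median of the listed genes lowered every difference by 0.35, to 2.15 for SULF2 and 0.88 for SULF1, and left their ranks at 6 and 156. With quantile normalization the differences were 2.61 and 1.27, and the ranks were 1 and 75. Both members stayed higher in HM under each scaling. The split of all calls, 318 higher and 190 lower as deposited, became 120 and 565 with median centring and 150 and 398 with quantile normalization.

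**Figure D3:**
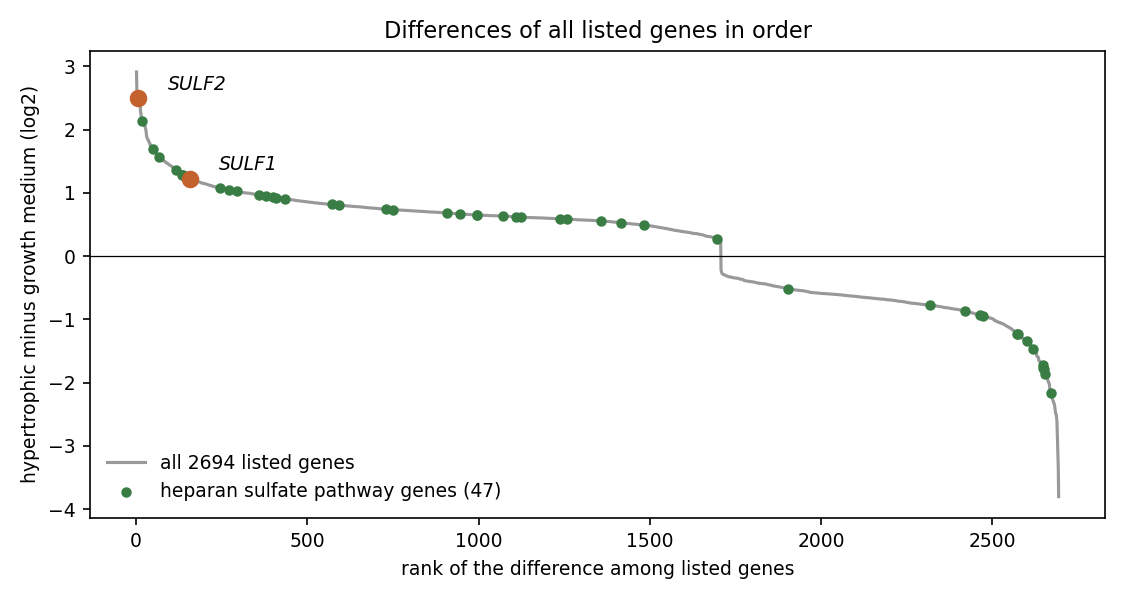
Log2 difference (HM minus GM) of all 2694 listed genes, ordered from the highest to the lowest, with SULF2 and SULF1 as large points and the 47 listed genes of the heparan sulfate pathway lists as small points. SULF2 ranks 6 and SULF1 ranks 156, and 33 pathway genes lie above 0 and 14 below.

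Other genes of the pathway were followed through 9 lists with 188 genes, of which 47 were among the listed genes. The lists were chosen with earlier results of these data known, so the shares given for them are descriptions and no test of enrichment. The other 141 were not analysed here, so the counts below describe only genes that entered a list of differing genes. Of the 47, 11 were called higher in HM by at least 1 (23.4%) and 9 lower (19.1%) by limma, beside 11.8% and 7.05% of all listed genes. By the adjusted p alone (limma), 33 rose (70.2%) and 14 fell (29.8%), beside 62.5% and 36.5% of all listed genes. None of the 47 missed the threshold, in a list where nearly every gene passed it. Their median difference was 0.65, against 0.56 over all listed genes. With median centring 4 were called higher and 13 lower, beside 120 and 565 of all 2694 listed genes. With quantile normalization 4 and 10 were called, beside 150 and 398 of all listed genes. Without HM replicate 1, 9 were called higher and 9 lower, beside 254 and 187 of all listed genes.

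Enzymes that build and trim the chain come next. None of the 16 enzymes of heparan sulfate modification, among them the 6-O-sulfotransferases whose product the endosulfatases remove, was among the listed genes. Of the 12 other genes of sulfatases and their activation, 2 were listed. ARSB, a lysosomal sulfatase of chondroitin and dermatan sulfate, rose by 0.63 (limma adjusted p = 0.00122), and STS, the steroid sulfatase, rose by 0.56 (limma adjusted p = 0.00309). ARSB was 11.10 and 11.11 in GM replicates 1 and 2 and 11.64, 11.87 and 11.71 in HM replicates 1, 2 and 3. Both were smaller differences than that of either member, and with median centring their adjusted p (limma) was 0.0707 and 0.175. With quantile normalization STS was 0.077 (limma adjusted p = 0.566), and without GM replicate 2 its adjusted p was 0.0583 (limma).

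In chain assembly, 2 of 12 genes were listed, XYLT1, which adds the first xylose of the linkage to the core protein, with 0.93, and PXYLP1, which removes a phosphate from that xylose, with 0.59. PXYLP1 was 0.24 with median centring and 0.19 with quantile normalization, with adjusted p of 0.166 and 0.242 (limma). The sulfate transporter gene SLC26A2 was the listed member of 9 genes of sulfate uptake and donor supply and rose by 0.65, or by 0.30 with median centring, where its adjusted p was 0.082 (limma). Of 11 genes of lysosomal breakdown, 2 were listed and rose, IDUA by 1.03 and HGSNAT by 0.82. IDUA fell short of the size threshold without HM replicate 1, at 0.92, without HM replicate 2, at 0.97, with median centring, at 0.68, and with quantile normalization, at 0.73. The comparison list of 16 chondroitin and dermatan sulfate enzymes had a single listed gene, CSGALNACT1, which starts chondroitin chains and rose by 1.49.

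Core proteins, which carry the chains, had 4 listed genes of 18. These 4 rose, beside 62.5% of all listed genes by the adjusted p of limma, and 3 were called higher by at least 1, beside 11.8%, with a median of 1.19. The syndecan gene SDC3 was 9.77 and 9.51 in GM replicates 1 and 2 and 11.06, 11.19 and 10.76 in HM replicates 1, 2 and 3. Its media did not overlap, and the log2 difference was 1.36 (standard error 0.16, limma adjusted p = 0.000148). TGFBR3, which encodes betaglycan, rose by 1.29, the glypican gene GPC6 by 1.08 and SDC2 by 0.59. With median centring all 4 stayed higher, but SDC2 had an adjusted p of 0.166 (limma). In that scaling 1 was called higher by at least 1, beside 120 of all 2694 listed genes. With quantile normalization all 4 kept an adjusted p under 0.05 (limma) and 0 were called by at least 1, beside 150 of all listed genes.

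**Figure D4:**
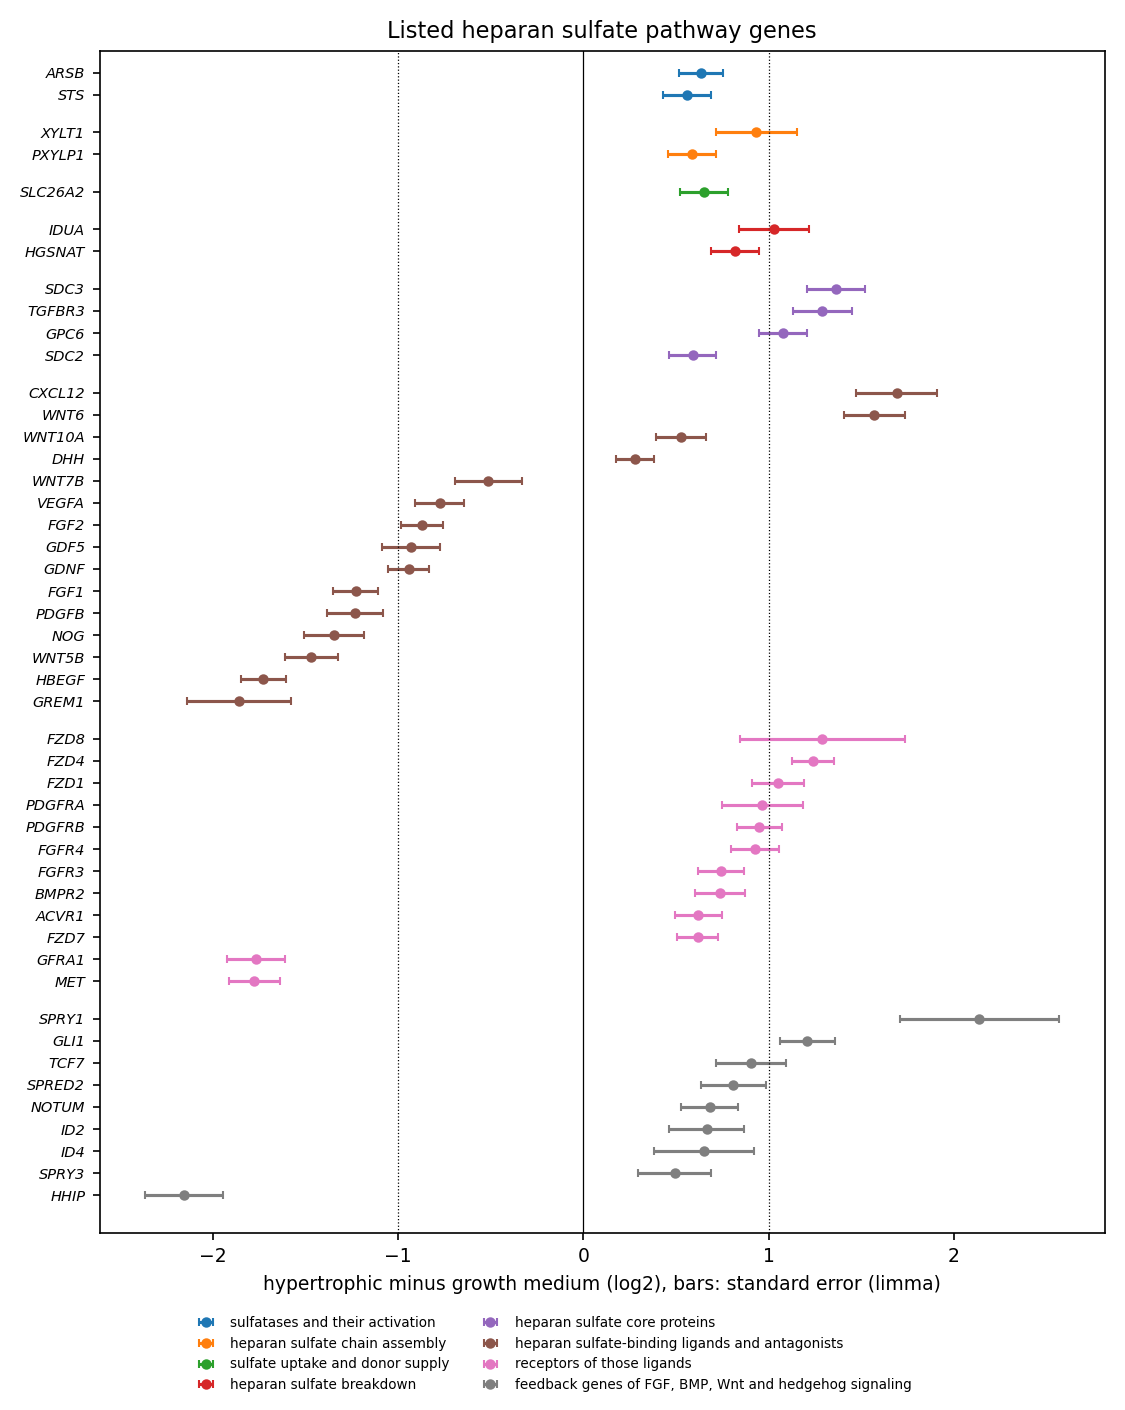
Log2 difference (HM minus GM) of the 47 listed pathway genes, colored by list, with bars for the standard error from limma and dotted lines at -1 and 1. All 4 core protein genes lie above 0, and 11 of the 15 ligand and antagonist genes lie below it.

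Among the listed genes, ligands and antagonists that bind heparan sulfate were mostly lower. Of 46, 15 were listed, of which 4 rose (26.7%) and 11 fell (73.3%) by the adjusted p of limma, beside 62.5% and 36.5% of all listed genes, with a median of -0.93. With at least 1 required, 2 were called higher (13.3%, beside 11.8% of all listed genes) and 6 lower (40.0%, beside 7.05%). With median centring the median was -1.28, and 2 were called higher and 10 lower, beside 120 and 565 of all 2694 listed genes. With quantile normalization 2 and 7 were called, beside 150 and 398 of all listed genes. GREM1, a secreted BMP antagonist, was 14.39 and 14.47 in GM replicates 1 and 2 and 11.88, 13.01 and 12.82 in HM replicates 1, 2 and 3. It was lower in every HM library and lowest in HM replicate 1. Its log2 difference was -1.86 (standard error 0.28, limma adjusted p = 0.000484), or -1.51 without HM replicate 1. HBEGF, an EGF receptor ligand named for its binding to heparin, fell by 1.73 (standard error 0.12, limma adjusted p = 1.43e-05). The chemokine gene CXCL12 rose by 1.69 and WNT6 by 1.57. BMP2 and GDF5 encode growth factors added to HM, and BMP2 was not among the listed genes. The BMP antagonist gene NOG and GDF5 are named after their values were seen and fell by 1.35 and 0.93. These directions held under both scalings except for DHH, a hedgehog ligand gene, which was 0.28 as deposited and -0.068 with median centring, and whose adjusted p (limma) was 0.0722, 0.0822 and 0.0873 without GM replicate 1, HM replicate 1 and HM replicate 2, and 0.0784 with eBayes without a trend. WNT10A, also among the 4 that rose and named for its lost call, was 0.53 as deposited and 0.18 with median centring (limma adjusted p = 0.345). WNT7B, another Wnt ligand gene named for its lost calls, was -0.51 with an adjusted p of 0.0202, which was 0.0847, 0.0558 and 0.0576 without GM replicate 2, HM replicate 2 and HM replicate 3, and 0.0505 with the replicate number as a block (limma).

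Receptors of these ligands showed 10 of 12 listed genes higher (83.3%, beside 62.5% of all listed genes by the adjusted p of limma), of 37 in the list, with a median of 0.83. With at least 1 required, 3 were called higher (25.0%, beside 11.8% of all listed genes) and 2 lower (16.7%, beside 7.05%). With median centring 9 of the 12 kept an adjusted p under 0.05 (75.0%, beside 68.0% of all listed genes, limma). With at least 1 required, 0 were then called higher and 2 lower, beside 120 and 565 of all 2694 listed genes. The Wnt receptor genes FZD8, FZD4 and FZD1 rose by 1.29, 1.24 and 1.05, and FZD7 by 0.62. The size for FZD8 rested on a single library, since it was 11.15 in HM replicate 1 against 9.42 and 9.43 in HM replicates 2 and 3. Leaving that library out gave 0.72 (limma adjusted p = 0.00102), and each HM library lay above both GM libraries. Its adjusted p of 0.0185 became 0.061 with median centring and 0.0986 with quantile normalization (limma). FZD1 was 0.97 without HM replicate 1. The PDGF receptor genes PDGFRA and PDGFRB rose by 0.97 and 0.95, and PDGFRA was 1.19 without HM replicate 1. The FGF receptor genes FGFR4 and FGFR3 rose by 0.93 and 0.74, and the BMP receptor genes BMPR2 and ACVR1 by 0.74 and 0.62. With median centring ACVR1 and FZD7 were both 0.27, with adjusted p of 0.061 and 0.0632, and with quantile normalization ACVR1 was 0.20 with an adjusted p of 0.128 (limma). In contrast, MET, the receptor of hepatocyte growth factor, fell by 1.78 (standard error 0.14, limma adjusted p = 2.32e-05), and GFRA1, a coreceptor of GDNF, fell by 1.77 (standard error 0.16, limma adjusted p = 4.61e-05).

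Feedback genes, which are switched on by a pathway and often dampen it, included 9 listed of 27, with 8 higher (88.9%) and 1 lower (11.1%), beside 62.5% and 36.5% of all listed genes by the adjusted p of limma. SPRY1, an inhibitor of receptor tyrosine kinase signaling, was 6.80 and 7.06 in GM replicates 1 and 2 and 10.16, 8.56 and 8.49 in HM replicates 1, 2 and 3. The HM libraries were all above GM, with HM replicate 1 far above the others. The log2 difference was 2.14 (standard error 0.43, limma adjusted p = 0.0016), or 1.60 without HM replicate 1. GLI1, a target of hedgehog signaling, rose by 1.21, whereas HHIP, which binds hedgehog ligands and is another target, fell by 2.15 (standard error 0.21, limma adjusted p = 6.16e-05). For Wnt signaling, the target gene TCF7 and the Wnt deacylase gene NOTUM rose by 0.90 and 0.68. Among the remaining members, SPRED2 rose by 0.81, the BMP target genes ID2 and ID4 by 0.66 and 0.65, and SPRY3 by 0.49. ID4, ID2 and SPRY3 missed the threshold with some libraries left out. ID4 was 0.72, 0.58, 0.36 and 0.72 without GM replicate 1, GM replicate 2, HM replicate 1 and HM replicate 3, with adjusted p of 0.0581, 0.114, 0.0675 and 0.0672 (limma). ID2 was 0.54 without GM replicate 1 (limma adjusted p = 0.0767), and SPRY3 was 0.44 and 0.28 without GM replicate 1 and HM replicate 2 (limma adjusted p = 0.0901 and 0.067). With median centring 5 of the 9 kept an adjusted p under 0.05 (55.6%, beside 68.0% of all listed genes, limma), and with quantile normalization 7 (77.8%, beside 82.4%). NOTUM was 0.33 with median centring (limma adjusted p = 0.0695), and SPRED2 was 0.35 with quantile normalization (limma adjusted p = 0.0542). With median centring SPRY3, ID2 and ID4 were 0.15, 0.32 and 0.30, with adjusted p of 0.518, 0.152 and 0.281 (limma). ID4 was 0.47 with quantile normalization (limma adjusted p = 0.0987).

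The genes most like each member were sought among protein-coding genes by the Euclidean distance between profiles over the 5 libraries, after subtracting the GM mean of each gene. Nearest to SULF1 were EBF4 at 0.066, ELFN1 at 0.084, RNF157 at 0.11, C1RL at 0.11 and PLEKHA4 at 0.16. EBF4, for example, was 9.10 and 9.06 in GM replicates 1 and 2 and 10.49, 10.19 and 10.14 in HM replicates 1, 2 and 3. Each of the 5 had its highest value in HM replicate 1, as SULF1 had. They were chosen by nearness to its profile, so this is no separate result. Profiles around SULF2 were more thinly spaced, among them C7 at 0.37, GASK1B at 0.46, COLEC12 at 0.56 and HEY1 at 0.75. Within HM, each of these named genes was lowest in HM replicate 2, whereas SULF2 was lowest in HM replicate 1. C7 was 7.32 and 7.35 in GM replicates 1 and 2 and 9.89, 9.58 and 10.03 in HM replicates 1, 2 and 3. The members were 2.26 apart. SULF1 ranked 146 of 2176 genes by nearness to SULF2, and SULF2 ranked 1513 of 2176 by nearness to SULF1.

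**Figure D5:**
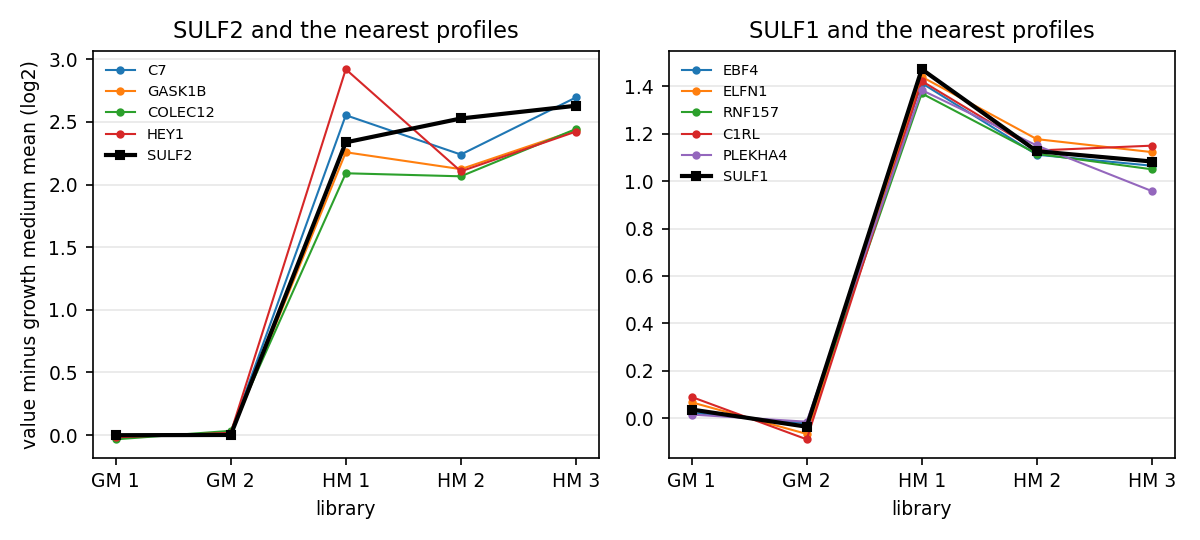
Log2 value minus the GM mean of the same gene in each library, for SULF2 (left) and SULF1 (right) in black and the nearest protein-coding genes named for each in color, with lines joining the values of a gene. The profiles nearest to SULF1 lie within 0.16 of it by Euclidean distance, and those shown for SULF2 between 0.37 and 0.75.

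Position gave little company to the members. A single listed gene, NCOA2, a nuclear receptor coactivator gene on chromosome 8, had its start within 1 Mb of that of SULF1, at 937.2 kb, and it rose by 0.57 (standard error 0.11, limma adjusted p = 0.00152). With median centring and quantile normalization NCOA2 was 0.22 and 0.18, with adjusted p of 0.0946 and 0.138 (limma). No listed gene had its start within 1 Mb of that of SULF2. On the opposite strand, the annotation places 2 genes that overlap SULF2, a long noncoding RNA gene and NCOA3, and neither is among the listed genes. The library kit keeps the strand, but whether reads were counted by strand is not given in the sources used here, so reads of such partners could not be separated from those of SULF2. SULF1 is overlapped by 0 genes in the same annotation.

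Markers of cartilage were checked beside the members. Of 16 chondrocyte markers 5 were listed, and COL2A1, COL9A3, COL9A2, ACAN and SOX9 rose by 1.53, 1.02, 1.08, 1.14 and 0.65, beside 62.5% of all listed genes that rose by the adjusted p of limma. The hypertrophic markers PTH1R and MMP13 were 2 listed of 7 and rose by 1.06 and 0.70, and the other 5, COL10A1, RUNX2, ALPL, SPP1 and IBSP, are not among the listed genes. Markers of other cell types also moved with the members. Of 9 fibroblast markers 5 were listed and all 5 rose, LUM by 1.30, COL3A1 by 1.07, PDGFRA by 0.97, POSTN by 0.85 and COL1A1 by 0.64, beside the same share of all listed genes. Their median value was 15.57 and 15.42 in GM replicates 1 and 2 and 16.07, 16.49 and 16.48 in HM replicates 1, 2 and 3, COL3A1 had the highest level per length, and none was at 0. The median of the 5 listed chondrocyte markers was lower, at 9.72 and 9.82 in the same GM libraries and 10.96, 10.90 and 10.71 in the same HM libraries. No length was subtracted from these medians. The osteoblast marker PHEX, 1 listed of 5, rose by 0.79. Of 6 leukocyte and endothelial markers 2 were listed, with CD14 higher by 1.24 and CDH5 lower by 1.19. With median centring the adjusted p (limma) was 0.289 for COL1A1, 0.0525 for SOX9, 0.116 for MMP13 and 0.0501 for PHEX, and without GM replicate 2 that of COL1A1 was 0.0946. With quantile normalization that of SOX9 was 0.059. The part of these markers in the difference of SULF1 and SULF2 was not tested.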

How the data were processed

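The authors deposited log2 values for 2694 genes in 5 libraries of TC28a2 cells. The study's methods name adapter trimming, HISAT2 alignment to hg19, StringTie read counts, a log2 transformation and RLE normalization, whereas the submitters' processing notes name cutadapt 1.18, TopHat2 2.0.13, Cuffdiff 2.2.1 and the rat build rn5. The conflict over the tools could not be settled. As for the build, 2441 of the gene symbols matched a single human gene of GENCODE 44 lifted to GRCh37. The list also holds names of the human nomenclature such as LINC01444 and HLA-L. Read depth is unknown from these values.

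Genes were tested between HM and GM by limma 3.58.1 under R 4.3.3 (lmFit, eBayes with a trend), with Benjamini-Hochberg adjustment over all listed genes, after the fit was tested on simulated data. Other steps used Python 3.11.15, pandas 2.3.3, Biopython 1.88 and matplotlib 3.10.9. Gene classes came from RefSeq.

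Members and lists were chosen with earlier results of these data known. Genes named are both members, all listed genes of a list with at most 12 of them (otherwise the 4 largest differences and any that missed the adjusted p), the 5 nearest profiles of each member, their neighbours in the order of differences, and listed genes within 1 Mb. Of the genes this rule covers, 1 is not reported here. The alternatives were a replicate block, each library left out, median centring, quantile normalization, no trend, other size thresholds, a minimum mean and another length.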

Additional observations from a re-analysis of the deposited data

How the results depend on the processing

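SULF2, SULF1 and the widening between them kept their direction under all alternatives run. Leaving out each library in turn gave 2.43 to 2.58 for SULF2, 1.10 to 1.30 for SULF1 and 1.13 to 1.47 for the SULF2 difference minus the SULF1 difference, where a lone GM library was assumed to vary like the HM libraries. In the same runs 9 to 14 pathway genes were called higher and 9 to 10 lower, and 254 to 416 of all listed genes higher and 187 to 205 lower (limma). With the replicate block, SULF2 was 2.43, SULF1 1.30 and their difference 1.13. These equal the values without HM replicate 3 by construction, since that library has no GM partner, so they are not a separate check. The calls with the block were 14 and 9 for the pathway and 418 and 202 for all listed genes. Over genes, replicate 1 minus replicate 2 was correlated between the media at -0.0253. This single value leaves out HM replicate 3 and cannot decide whether same-numbered libraries shared a culture or a batch.

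Median centring moved SULF2 to 2.15 and SULF1 to 0.88, the constant shift of that scaling, and reversed DHH to -0.068. It called 4 pathway genes higher, and 120 of all listed genes higher and 565 lower. Quantile normalization called 4 pathway genes higher, and 150 and 398 of all listed genes. As the list holds no unchanged background, neither scaling can show which of these counts is right. With no minimum difference the pathway calls were 33 and 14 and those of all listed genes 1683 and 984, and with a minimum of 2 they were 1 and 1, and 28 and 29, as the thresholds themselves set. Leaving out the trend, or genes with a mean under 7, kept the counts within 1.5 times. The longest transcript as the length moved the gap per length in GM to 1.54.

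Of the 47 pathway genes, 33 kept an adjusted p under 0.05 (limma) with median centring (70.2%, beside 68.0% of all listed genes) and 41 with quantile normalization (87.2%, beside 82.4%). With 2 and 3 libraries, log2 values and no read counts, the counting error of single values cannot be given, and a list of genes that all differ cannot show how unusual a difference is among genes at large.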
